A study of Mus musculus with 35 samples.

Results

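A set of 58 ribosome biogenesis factors, the nucleolar proteins that build the subunits of the ribosome, was followed in mouse splenic dendritic cells that lacked Mycl or were labelled as lacking Mxd1. The genes were chosen by name as ribosome assembly genes, with earlier results of these data known. They comprised 26 small-subunit factors, 21 large-subunit factors, 8 proteins of the small nucleolar ribonucleoproteins (snoRNPs) and 3 general nucleolar proteins. Of the 58, 57 were measured among the 19938 named genes of the arrays. The exception was Noc2l, a large-subunit factor, which no single-gene cluster named and which is not analysed here, so the large-subunit class held 20 measured genes. All 57 passed the filter on low values in every comparison.

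RNA came from type 1 conventional dendritic cells (cDC1) purified from spleen by flow cytometry, 35 arrays in all, and cDC1 are the dendritic cells that cross-present antigen to CD8 T cells. The Mycl knockout (KO) mice were MyclGFP/GFP, with a GFP allele on both chromosomes, so the loss was not limited to cDC1. Set 1 held 4 resting KO arrays and 5 resting heterozygous (MyclGFP/+) arrays, and it had no wild-type group, so its controls carried 1 GFP allele. Set 2 held 5 resting KO arrays and 5 resting wild-type (WT, Mycl+/+) arrays. Set 3 held 5 KO and 5 WT arrays of mice given 100 µg of poly IC, a double-stranded RNA mimic that elicits type I interferon, into the peritoneum 5 h earlier. A last set held 3 arrays labelled Mxd1-/- and 3 labelled Mxd1+/+, all 18 h after the same dose of poly IC. The ages of the mice are not given in the labels used here.

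Ribosome assembly starts in the nucleolus, where the small-subunit processome folds around the new precursor rRNA with the U3 snoRNP and cuts its leader away. Large-subunit factors then bind the remaining precursor, remodel it and carry it towards the nucleoplasm. Box C/D and box H/ACA snoRNPs guide the methylation and pseudouridylation of rRNA nucleotides. Many of these genes are classical targets of MYC, which pairs with MAX and binds E box sequences near their start sites. Mycl is a MYC family member that cDC express, and Mxd1 pairs with MAX to repress genes of the same kind.

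The Mycl transcript was low in the KO arrays of the resting sets. On the log2 scale the 4 KO arrays of set 1 averaged 6.96 ± 0.16 (SD), against 9.84 ± 0.11 in the 5 heterozygous arrays. Those of set 2 averaged 5.65 ± 0.14, against 9.67 ± 0.11 in the WT arrays (n = 5 each). Under poly IC it was 5.84, 5.99, 8.87, 5.52 and 6.14 in the KO libraries, against 9.66, 9.36, 9.03, 9.81 and 9.31 in the WT libraries. KO library 3 of that set thus stood near the WT level, and the main counts of set 3 are given with it and without it. Without that library the Mycl difference of set 3 was -3.56 (adjusted p = 3.19e-05). Mxd1 was 10.64, 10.49 and 10.41 in the libraries labelled Mxd1 KO, against 11.03, 10.81 and 10.63 in WT, groups that overlap, so the transcript level did not check that label. The mean of the 10 cDC1 markers lay between 10.04 and 11.66 on every array, while the lists of other cells lay lower, at 6.88 to 7.94 for pDC, 5.67 to 7.05 for monocytes and macrophages, 5.58 to 6.99 for cDC2 and 4.65 to 5.89 for B and plasma cells. The level of the filter was 4.70 to 5.82 over all sets. Within each set the means of the pDC, cDC2, and monocyte and macrophage lists lay above it on every array. The neutrophil list mean in set 3 was 5.39 to 6.73 in KO and 5.21 to 6.33 in WT, where the filter level was 4.70 to 4.78. The medians of all clusters differed between the sets, from 5.47 on the lowest array, in set 3, to 6.57 on the highest, in set 1. The sets were treated as normalized separately, and levels are compared only within a set.

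In resting cDC1 without Mycl, ribosome biogenesis transcripts of every class lay lower than in the controls, by small amounts. In set 1 all 57 genes had a difference below 0, against 48.7% of all 14023 genes tested, and their median log2 difference (KO minus heterozygous) was -0.19, with a range of -0.48 to -0.10. In set 2 the difference was below 0 for 45 of the 57, against 47.1% of 14012 genes, with a median of -0.09 and a range of -0.53 to 0.27. Over both resting sets, with the set as a block, 54 of 57 were below 0, against 46.0% of 14639 genes, and the median was -0.15. The median over all genes was between 0.00 and 0.01 in these comparisons. In sorted bulk RNA, fewer cells of a type and less RNA per cell cannot be told apart, and values of these arrays are relative to the other transcripts.

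By limma's test, adjusted over all genes, 17 of the 57 fell over both resting sets, against 2.43% of all genes, and none was higher. The 17 were spread over the classes, with 6 of 26 small-subunit factors, 6 of 20 large-subunit factors, 4 of 8 snoRNP proteins and 1 of 3 general nucleolar proteins. Set 2 alone gave 11 that fell, where 2.36% of all genes did, and 1 that rose, where 3.78% of all genes did. Set 1 alone gave 1 that fell, Wdr75, where 0.0214% of all genes did. At an unadjusted p under 0.05, 34 of 57 were lower in set 1, against 8.45% of all genes, and 21 of 57 in set 2, against 8.56%. Every KO array lay below every control array for 16 of the 57 genes in set 1, against 2.72% of all genes, and for 10 of the 57 in set 2, against 3.0%.

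**Figure D1:**
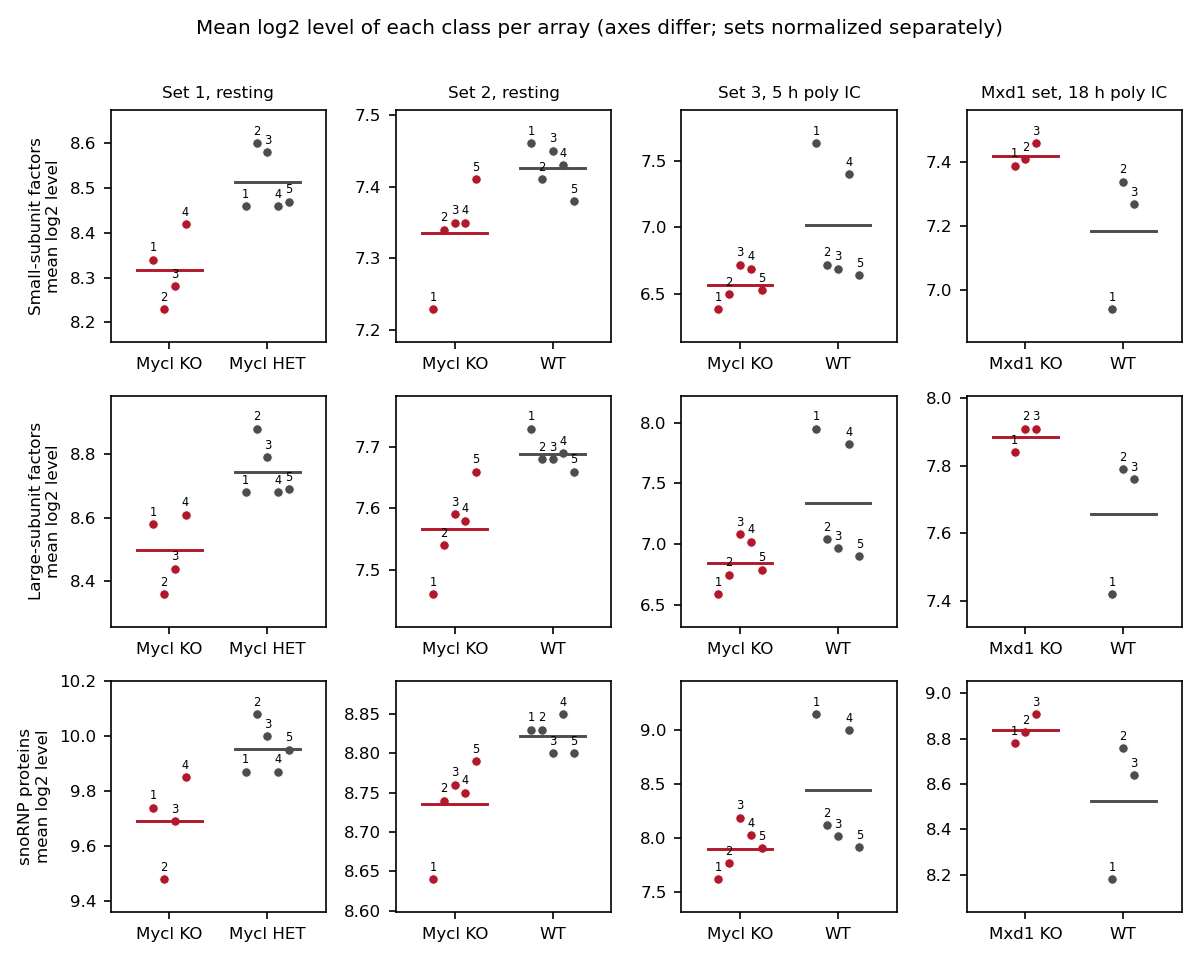
Mean log2 level of small-subunit factors, large-subunit factors and snoRNP proteins on each array (numbered points), with KO left of its control in each set and the group mean as a bar. KO lies lower than control in the resting sets and in the poly IC set of the Mycl mice, where WT libraries 1 and 4 stand above the other 3, and the libraries labelled Mxd1 KO lie higher than Mxd1 WT.

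Class means of the KO arrays lay below or near those of the controls in both resting sets. In set 1 the class mean of the small-subunit factors was 8.34, 8.23, 8.28 and 8.42 in the KO arrays, against 8.46, 8.60, 8.58, 8.46 and 8.47 in the heterozygous arrays, with no overlap. The class mean of the large-subunit factors was 8.58, 8.36, 8.44 and 8.61 in KO, against 8.68, 8.88, 8.79, 8.68 and 8.69 in heterozygous arrays, again with no overlap. The snoRNP proteins gave 9.74, 9.48, 9.69 and 9.85 in KO, against 9.87, 10.08, 10.00, 9.87 and 9.95 in heterozygous arrays. KO array 2 was the lowest of its group in all 3 of these classes. In set 2 the small-subunit mean was 7.23, 7.34, 7.35, 7.35 and 7.41 in KO, against 7.46, 7.41, 7.45, 7.43 and 7.38 in WT, so that here only the highest KO array reached the WT arrays. The large-subunit mean in set 2 was 7.46 to 7.66 in KO and 7.66 to 7.73 in WT, so that the groups met at 7.66. The snoRNP mean did not overlap in set 2, at 8.64 to 8.79 in KO and 8.80 to 8.85 in WT. The general nucleolar mean overlapped in set 1, at 10.09 to 10.32 in KO and 10.29 to 10.50 in heterozygous arrays, and did not in set 2, at 8.77 to 9.06 in KO and 9.07 to 9.24 in WT. The median differences of the classes in set 1 were -0.18 for small-subunit factors, -0.21 for large-subunit factors, -0.23 for snoRNP proteins and -0.16 for the general nucleolar proteins. In set 2 they were -0.09, -0.07, -0.15 and -0.24 in the same order, and differences between classes were not tested.

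**Figure D2:**
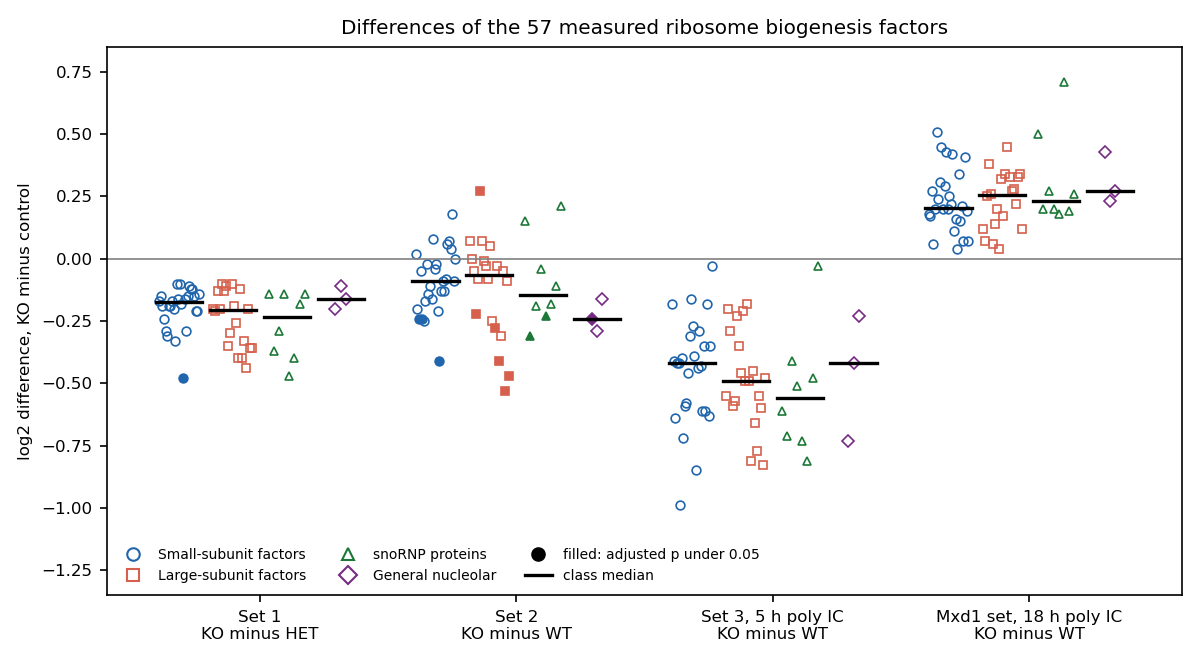
Log2 difference (KO minus control) of each of the 57 measured genes in sets 1, 2 and 3 and the Mxd1 set, by class, with filled points for genes at an adjusted p under 0.05 and a line at each class median. All points of sets 1 and 3 lie below 0 and all points of the Mxd1 set above 0, and filled points appear in sets 1 and 2.

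MYC proteins bind the E box CACGTG and also a variant that reads CACGCG in one direction and CGCGTG on the opposite strand. The promoters of the genes were therefore read for these letters on both strands. RefSeq promoters of GRCm38.p6, 300 bases from 250 before to 50 after the start site, were given for 50 of the 57 measured genes. A gene with several listed promoters was counted if any of them held the letters. CACGTG stood in 10 of the 50 (20.0%), against 8.91% of 17491 protein-coding promoters and 10.8% of the promoters of 11571 genes tested over both resting sets. By class it stood in 6 of 24 small-subunit, 4 of 17 large-subunit, 0 of 7 snoRNP and 0 of 2 general nucleolar promoters. The variant stood in 12 of the 50 (24.0%), against 13.7% of protein-coding promoters and 17.8% of those of tested genes, and here 3 of 7 snoRNP promoters held it. Among the 17 genes that fell over both resting sets, 5 held CACGTG (29.4%), against 5 of the other 33 (15.2%). A match of letters describes the window and is not a site of binding.

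The following promoters belong to genes that fell over both resting sets (Nop2, Rpf2, Nip7 and Wdr75) and to 1 that did not (Utp20), and capitals mark the E box or its variant. Nop2, a methyltransferase of large-subunit rRNA, has CACGTG 60 bases before its start (chr6:125131633-125131932, + strand). Rpf2, which brings the smallest rRNA into the large subunit, has it 34 bases after the start of the window printed (chr10:40246990-40247289, - strand). Relative to another listed start of Rpf2 it lies 26 bases before. Nip7 has the variant 41 bases before its start (chr8:107056627-107056926, + strand). Wdr75, the gene with the lowest difference in set 1, has none of these letters in its window (chr1:45794916-45795215, + strand). Utp20 has CACGTG 37 bases after its start (chr10:88826765-88827064, - strand), and its difference over both resting sets had an adjusted p of 0.983.
Nop2: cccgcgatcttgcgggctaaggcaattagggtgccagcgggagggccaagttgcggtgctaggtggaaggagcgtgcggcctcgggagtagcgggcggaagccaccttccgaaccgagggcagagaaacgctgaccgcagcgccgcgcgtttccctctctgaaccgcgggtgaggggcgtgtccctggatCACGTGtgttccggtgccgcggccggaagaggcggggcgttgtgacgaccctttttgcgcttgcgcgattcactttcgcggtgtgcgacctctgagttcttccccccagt
Rpf2: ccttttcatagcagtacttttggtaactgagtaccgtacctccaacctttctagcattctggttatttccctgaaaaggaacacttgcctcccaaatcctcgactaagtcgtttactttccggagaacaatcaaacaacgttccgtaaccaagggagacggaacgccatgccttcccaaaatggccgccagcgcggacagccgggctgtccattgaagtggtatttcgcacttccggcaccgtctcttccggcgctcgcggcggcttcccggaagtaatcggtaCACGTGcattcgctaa
Nip7: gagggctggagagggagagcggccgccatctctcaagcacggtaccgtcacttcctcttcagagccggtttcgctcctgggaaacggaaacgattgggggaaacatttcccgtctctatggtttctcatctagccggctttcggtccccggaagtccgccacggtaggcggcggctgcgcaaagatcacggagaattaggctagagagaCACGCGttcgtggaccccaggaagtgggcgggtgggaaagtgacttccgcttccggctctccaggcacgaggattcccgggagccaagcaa
Wdr75: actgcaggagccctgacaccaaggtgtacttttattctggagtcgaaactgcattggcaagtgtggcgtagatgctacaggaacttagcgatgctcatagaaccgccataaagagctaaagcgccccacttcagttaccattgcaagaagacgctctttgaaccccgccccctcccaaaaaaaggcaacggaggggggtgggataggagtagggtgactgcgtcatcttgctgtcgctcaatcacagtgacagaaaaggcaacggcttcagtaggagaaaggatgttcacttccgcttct
Utp20: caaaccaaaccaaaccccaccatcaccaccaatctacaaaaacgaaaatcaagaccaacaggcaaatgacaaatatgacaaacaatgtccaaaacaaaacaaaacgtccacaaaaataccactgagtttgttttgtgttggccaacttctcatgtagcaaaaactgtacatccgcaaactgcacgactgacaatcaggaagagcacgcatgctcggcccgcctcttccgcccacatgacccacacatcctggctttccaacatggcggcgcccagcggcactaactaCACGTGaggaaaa

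Of the small-subunit factors, Wdr75, a subunit of the UTP-A complex that loads onto the start of the rRNA precursor, fell in both resting sets. Its log2 level was 8.24, 8.16, 8.15 and 8.36 in the KO arrays of set 1, against 8.72, 8.71, 8.76, 8.71 and 8.63 in the heterozygous arrays. In set 2 it was 6.77, 7.04, 7.16, 7.10 and 7.28 in KO, against 7.48, 7.40, 7.43, 7.59 and 7.48 in WT. The groups did not overlap in either set, with KO array 1 of set 2 the lowest. The differences were -0.48 ± 0.05 (SE; adjusted p = 0.0106), a level 1.39-fold lower, in set 1 and -0.41 ± 0.08 (adjusted p = 0.00977), 1.33-fold lower, in set 2. The call of set 1 was lost when KO library 1, KO library 3, heterozygous library 2 or heterozygous library 3 was left out, while that of set 2 was kept without any 1 of the 10 libraries.

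The other UTP-A subunits moved less. Wdr43 was 8.46, 8.38, 8.18, 8.38 and 8.44 in the KO arrays of set 2, against 8.61, 8.54, 8.59, 8.72 and 8.61 in WT, with no overlap. It fell by 0.24 ± 0.06 there (adjusted p = 0.031) and by 0.26 ± 0.04 over both resting sets (adjusted p = 0.00117). The call of set 2 was lost in 7 of the 10 fits that each left out 1 library, and that over both sets in 0 of 19. Heatr1, the large scaffold of the complex, had differences of -0.19 in set 1 and -0.02 in set 2, and Utp15 of -0.15 and -0.20, and neither passed the test in any comparison. In the UTP-B complex, which binds next, Pwp2, Wdr3, Wdr36 and Utp18 had differences of -0.17 to -0.10 in set 1 and of -0.14 to -0.02 in set 2, and none passed.

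Nop14, which joins the processome with Noc4l and Emg1, was 8.47, 8.53, 8.52, 8.60 and 8.60 in the KO arrays of set 2, against 8.86, 8.69, 8.87, 8.77 and 8.72 in WT. The groups did not overlap in either resting set, and Nop14 fell by 0.24 ± 0.06 in set 2 (adjusted p = 0.0221) and by 0.22 ± 0.04 over both (adjusted p = 0.00174). Its partners did not pass: Noc4l had a difference of -0.19 over both resting sets (adjusted p = 0.0762) and Emg1 of -0.05 (adjusted p = 0.61). The Mpp10 complex, made of Mphosph10, Imp3 and Imp4, had differences of -0.24, -0.14 and -0.14 over both resting sets with adjusted p of 0.0834, 0.23 and 0.0947. Krr1, an RNA-binding processome protein, passed with -0.20 ± 0.06 (adjusted p = 0.0434), and its call was lost in 12 of the 19 fits that each left out 1 library.

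Late small-subunit factors, which act on the precursor after the processome has come apart, gave calls over both resting sets only. Tsr1, a GTPase-like protein that blocks the subunit interface, was 8.38, 8.21, 8.29 and 8.60 in KO arrays of set 1, against 8.60, 8.81, 8.85, 8.68 and 8.48 in heterozygous arrays. In set 2 it was 7.33, 7.53, 7.45, 7.59 and 7.53 in KO, against 7.84, 7.72, 7.79, 7.84 and 7.50 in WT. The groups overlapped in both sets, in set 2 through WT array 5 alone, and Tsr1 fell by 0.28 ± 0.06 over both sets (adjusted p = 0.00761). Nob1, the endonuclease of the last cut of the small-subunit rRNA, fell by 0.18 ± 0.04 (adjusted p = 0.0172). Rrp12, an export factor, had a difference of -0.15 (adjusted p = 0.0634), Ltv1 of -0.07 (adjusted p = 0.629), and Bysl had an adjusted p of 0.987. Of the enzymes, the acetyltransferase Nat10 had -0.02, and the GTPase Bms1 and its partner Rcl1 had -0.07 and -0.15, none of which passed.

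**Figure D3:**
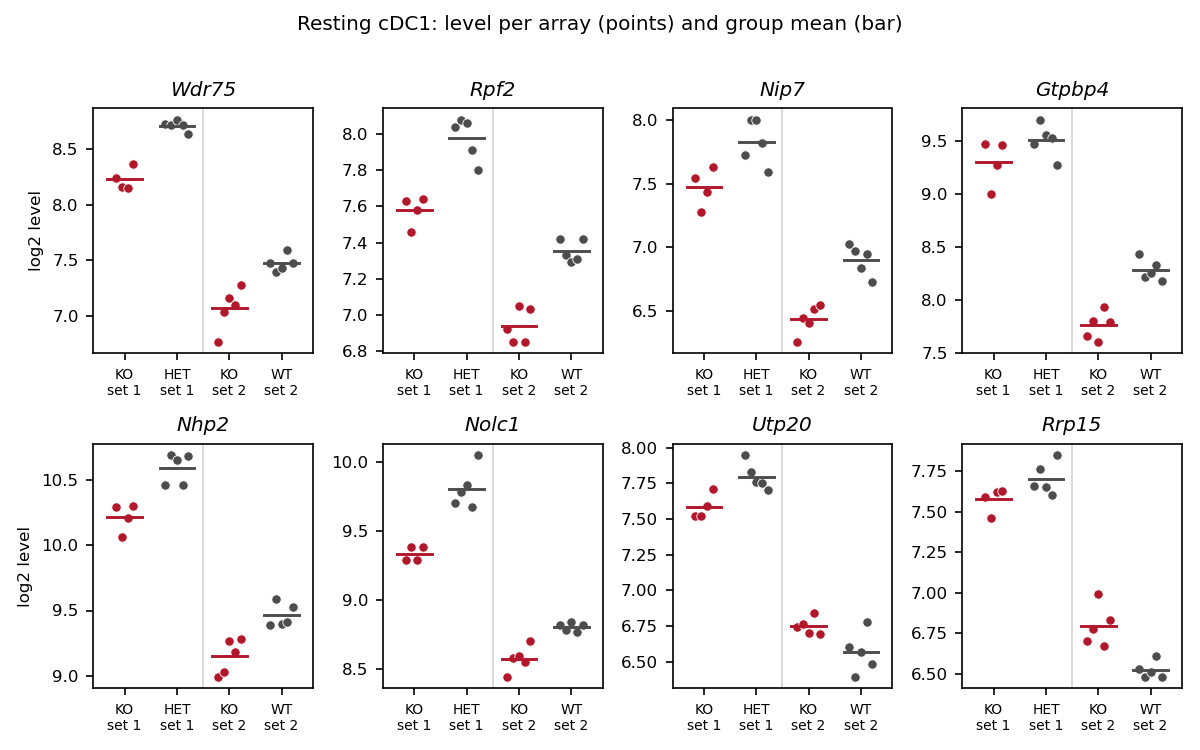
Log2 level on every resting array (points) of 6 genes that fell over both resting sets and of Utp20 and Rrp15, with KO left of its control within each set and group means as bars. For Wdr75, Rpf2, Nhp2 and Nolc1 the KO arrays lie below every control array in both sets.

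Of the large-subunit factors, Nip7, Rpf2, Gtpbp4 and Nop2 had the lowest differences over both resting sets together. Rpf2 was 7.63, 7.46, 7.58 and 7.64 in the KO arrays of set 1, against 8.04, 8.08, 8.06, 7.91 and 7.80 in the heterozygous arrays. In set 2 it was 6.92, 6.85, 7.05, 6.85 and 7.03 in KO, against 7.42, 7.33, 7.29, 7.31 and 7.42 in WT. The groups did not overlap in either set, and the differences were alike, -0.40 ± 0.07 in set 1 (adjusted p = 0.0807) and -0.41 ± 0.06 in set 2 (adjusted p = 0.00124). Over both sets Rpf2 fell by 0.41 ± 0.04 (adjusted p = 1.49e-05), and its promoter, with CACGTG in capitals, is among those printed. Its partner Rrs1, which forms a dimer with it in yeast, had -0.35 ± 0.10 in set 1 (adjusted p = 0.203) and -0.01 ± 0.06 in set 2 (adjusted p = 0.944).

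Nip7, which binds the precursor of the large-subunit rRNA, was 6.26, 6.45, 6.41, 6.52 and 6.55 in the KO arrays of set 2, against 7.03, 6.97, 6.84, 6.95 and 6.73 in WT. It fell by 0.47 ± 0.07 in set 2 (adjusted p = 0.00198), where the groups did not overlap. In set 1, Nip7 had -0.36 ± 0.10 (adjusted p = 0.185), and there the heterozygous array 5, at 7.59, lay below the highest KO array, at 7.63. The GTPase Gtpbp4 was 7.66, 7.80, 7.60, 7.93 and 7.79 in KO of set 2, against 8.43, 8.21, 8.25, 8.33 and 8.18 in WT. It fell by 0.53 ± 0.07 in set 2 (adjusted p = 0.00079), the lowest difference of any of the 57 genes there. In set 1, Gtpbp4 had -0.20 ± 0.11 (adjusted p = 0.409), with overlapping groups, and the difference between its effects in sets 1 and 2 did not pass (0.32 ± 0.13, adjusted p = 0.209).

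Nop2 was 8.78, 8.68, 8.61 and 8.80 in the KO arrays of set 1, against 9.09, 9.15, 9.16, 9.22 and 8.97 in heterozygous arrays. In set 2 it was 7.90, 8.04, 8.01, 8.03 and 8.07 in KO, against 8.43, 8.35, 8.40, 8.07 and 8.23 in WT. WT array 4 alone reached the KO level, and Nop2 fell by 0.28 ± 0.07 in set 2 (adjusted p = 0.0274) and by 0.34 ± 0.05 over both sets (adjusted p = 0.000314). Its call in set 2 was lost in 5 of the 10 fits without 1 library. Gnl3 (nucleostemin), a nucleolar GTPase of proliferating cells, fell by 0.32 ± 0.07 over both sets (adjusted p = 0.00914).

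The PeBoW complex, made of Pes1, Bop1 and Wdr12, binds the large-subunit precursor as a unit, and by the clusters used Pes1 alone of the 3 passed the test in the resting sets. Pes1 fell by 0.22 ± 0.06 in set 2 (adjusted p = 0.0489) and by 0.21 ± 0.04 over both resting sets (adjusted p = 0.00266). The call of set 2 was lost in 9 of the 10 fits that each left out 1 library, and that over both sets in none of 19. Bop1 had differences of -0.20 in set 1 and 0.07 in set 2, and Wdr12 of -0.36 and -0.09, none of which passed. The cluster used for Wdr12 stands among clusters of chromosome 7 on the platform, although the gene lies on chromosome 1. The other Wdr12 cluster, which stands among chromosome 1 clusters, gave -0.32 ± 0.07 over both resting sets (adjusted p = 0.0105).

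Among the other large-subunit factors, Rrp1b had -0.44 ± 0.08 in set 1 (adjusted p = 0.084) and -0.05 ± 0.07 in set 2 (adjusted p = 0.761). The ribosomal protein chaperone Grwd1 and the methyltransferase Ftsj3 had -0.02 and -0.07 over both resting sets, and Noc3l, Nop16, Brix1 and Wdr74 had -0.06, -0.10, -0.25 and -0.09, none of which passed. Gnl2, Ebna1bp2 and Mrto4 lie on chromosome 4 as Mycl does, 2.0, 4.4 and 16.4 Mb from it in GRCm38.p6. Their differences over both resting sets were -0.09, -0.09 and -0.16, and none passed.

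Rrp15, a factor of early large-subunit precursors, went the other way in set 2. It was 6.70, 6.78, 6.99, 6.67 and 6.83 in KO arrays, against 6.53, 6.48, 6.51, 6.61 and 6.48 in WT. Every KO array lay above every WT array, and Rrp15 rose by 0.27 ± 0.06 (adjusted p = 0.0228), the only one of the 57 to rise in set 2. That call was lost in 3 of the 10 fits without 1 library, and no member was higher in set 2 with all 8 groups in 1 fit. In set 1, Rrp15 was 7.59, 7.46, 7.62 and 7.63 in KO, against 7.66, 7.76, 7.65, 7.60 and 7.85 in heterozygous arrays, overlapping groups with a difference of -0.13 ± 0.06 (adjusted p = 0.364).

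Both kinds of snoRNP held proteins that fell and proteins that did not pass the test. Of the box C/D core, Nop58 and Nop56, the paralogous scaffolds, passed over both resting sets with -0.29 ± 0.07 (adjusted p = 0.028) and -0.23 ± 0.05 (adjusted p = 0.0102). Nop58 was 9.0, 8.40, 8.96 and 9.17 in the KO arrays of set 1, against 9.33, 9.47, 9.23, 9.19 and 9.18 in heterozygous arrays, with KO array 2 far below the others. Fibrillarin (Fbl), the methyltransferase of the particle, had -0.14 in set 1 and -0.04 in set 2, by a cluster that stands among clusters of chromosome 17 although the gene lies on chromosome 7. Its other cluster, among chromosome 7 clusters, had -0.12 over both sets (adjusted p = 0.232).

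Of the box H/ACA core, Nhp2 fell and its partners did not pass. Nhp2, an RNA-binding protein of the particle, was 8.99, 9.03, 9.27, 9.18 and 9.28 in KO arrays of set 2, against 9.39, 9.59, 9.40, 9.41 and 9.53 in WT. In set 1 it was 10.29, 10.06, 10.21 and 10.30 in KO, against 10.46, 10.69, 10.65, 10.46 and 10.68 in heterozygous arrays. The groups did not overlap in either set, and Nhp2 fell by 0.34 ± 0.05 over both (adjusted p = 0.000445). Dyskerin (Dkc1), the pseudouridine synthase, had -0.14 ± 0.10 in set 1 and 0.15 ± 0.07 in set 2, Gar1 had -0.18 and -0.11, and Nop10 had -0.14 and 0.21. Nolc1 (Nopp140), the chaperone that moves both kinds of particle, was 9.29, 9.38, 9.29 and 9.38 in KO of set 1, against 9.70, 9.78, 9.83, 9.67 and 10.05 in heterozygous arrays. In set 2, Nolc1 was 8.44, 8.58, 8.59, 8.55 and 8.70 in KO, against 8.82, 8.78, 8.84, 8.77 and 8.82 in WT. All KO arrays lay below all controls in both sets, and Nolc1 fell by 0.34 ± 0.05 over both (adjusted p = 0.000416).

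Of the general nucleolar proteins, the RNA helicase Ddx21 fell by 0.24 ± 0.05 in set 2 (adjusted p = 0.0181) and by 0.22 ± 0.04 over both resting sets (adjusted p = 0.00194). It was 8.73, 8.80, 8.70, 8.81 and 8.77 in the KO arrays of set 2, against 9.06, 8.88, 9.0, 9.03 and 9.06 in WT, with no overlap. Nucleolin (Ncl) had -0.16 ± 0.05 (adjusted p = 0.0607) and nucleophosmin (Npm1) had -0.20 ± 0.07 (adjusted p = 0.077) over both resting sets.

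**Figure D4:**
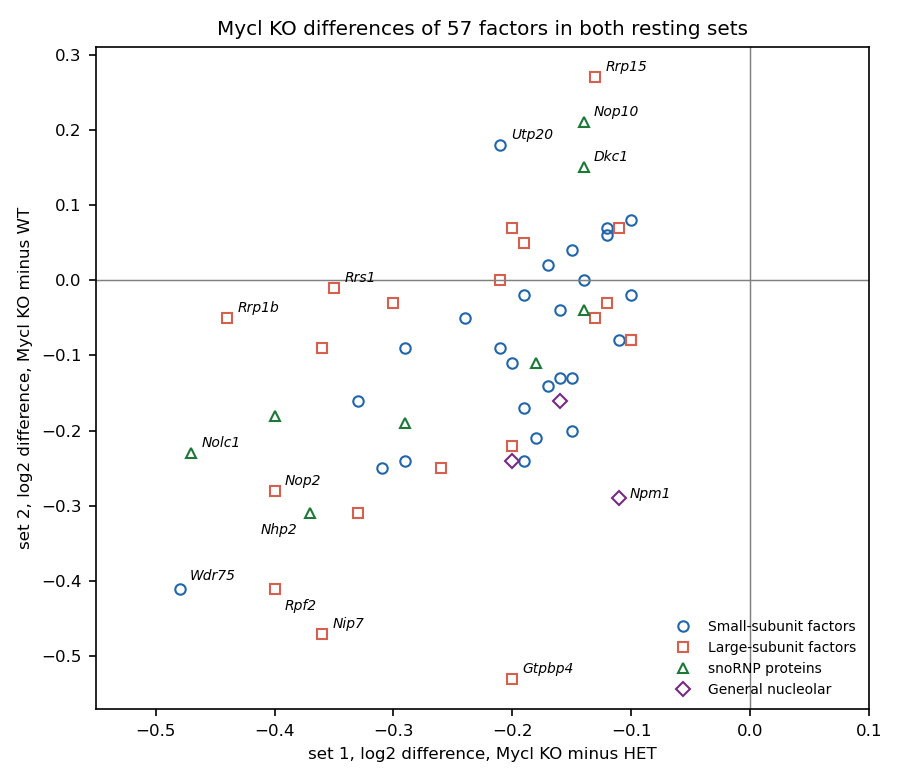
Log2 difference (KO minus control) of each of the 57 genes in set 1 against that in set 2, coloured by class, with the named genes labelled. Most genes lie below 0 on both axes, and Rrp15, Nop10, Utp20 and Dkc1 lie below 0 in set 1 and farthest above 0 in set 2.

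The resting sets share no array, and the differences of the 57 genes in them had a Pearson r of 0.52 across genes, against 0.20 across 13509 genes measured in both. The effects of the sets differed by test for 2 of the 57 genes, where 0.758% of all genes had an effect lower in set 1. For Rrp15 the effect in set 1 minus that in set 2 was -0.40 ± 0.09 (adjusted p = 0.0342). For Utp20, a large scaffold of the processome, it was -0.39 ± 0.10 (adjusted p = 0.0492), and these calls were lost in 9 and 16 of the 19 fits that each left out 1 library. Utp20 was 7.52, 7.52, 7.59 and 7.71 in KO of set 1, against 7.95, 7.83, 7.76, 7.75 and 7.70 in heterozygous arrays, and 6.74, 6.76, 6.70, 6.84 and 6.69 in KO of set 2, against 6.60, 6.39, 6.57, 6.78 and 6.48 in WT. Within each set the Utp20 groups overlapped through 1 control array.

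The sets also differed in Myc and in cell cycle transcripts. Myc was 8.44, 8.62, 8.91, 8.86 and 8.80 in KO of set 2, against 7.70, 7.58, 7.10, 7.66 and 7.68 in WT, and it rose by 1.18 ± 0.11 (adjusted p = 7.85e-05). In set 1, Myc had a difference of -0.01 (adjusted p = 0.986) and the groups overlapped. The mean of the proliferation list was 9.13, 8.83, 8.94 and 9.16 in KO of set 1, against 9.10, 9.37, 9.35, 9.13 and 9.03 in heterozygous arrays, with 15 of 16 genes below 0. In set 2 it was 8.14, 8.31, 8.19, 7.89 and 8.26 in KO, against 8.01, 7.92, 8.11, 7.95 and 8.04 in WT, with 13 of 16 genes above 0. Their part in the differences between the sets was not tested. In set 2 the 6 T and NK cell markers tested were all above 0 with a median of 0.14, and 1 rose. Their highest difference was 0.97, and the list mean was 5.17 to 5.39 in KO and 5.01 to 5.22 in WT. The cDC2 list mean was 6.04 to 6.50 in KO and 5.98 to 6.20 in WT, with 6 of 7 markers above 0, 2 that rose and 1 that fell. The highest difference of a cDC2 marker was 1.37, and the highest over all 14012 genes tested was also 1.37. The plasmacytoid dendritic cell (pDC) list mean was 7.02 to 7.32 in KO and 6.99 to 7.08 in WT, with 5 of 6 markers above 0, a median of 0.22, 2 that rose and 1 that fell. Of the 10 cDC1 markers, 4 rose and 1 fell in set 2, and all 10 were above 0 in set 1 with a median of 0.12, and 4 of 15 interferon response genes rose in set 2. The part of these cells and genes in the result was not tested.

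Further assembly factors outside the 58 also lay lower in resting KO cells. Of 35 other small-subunit factors tested, 35 were below 0 in set 1 with a median of -0.15, and 29 in set 2. Of 37 other large-subunit factors, 35 were below 0 in set 1 with a median of -0.14, and 28 in set 2. Of 11 other snoRNP factors, all 11 were below 0 in set 1 with a median of -0.19, and 5 in set 2, where their median was 0.03 and 1 rose. Over all genes the shares below 0 were 48.7% in set 1 and 47.1% in set 2. Over both resting sets 7, 9 and 1 of these factors fell, against 2.43% of all genes. None of these was called in set 1, in set 3 or in the Mxd1 set.

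At 5 h after poly IC, all 57 genes lay below 0 in Mycl KO cells of set 3, with a median of -0.46 and a range of -0.99 to -0.03, and the median was -0.12 without WT libraries 1 and 4, which stood apart. No gene tested passed the test in set 3 (0.0% of 14033 genes lower, and 1992 genes at an unadjusted p under 0.05). At an unadjusted p under 0.05, 26 of the 57 were lower, against 7.58% of all genes, and 50.3% of all genes were below 0. Every KO array lay below every WT array for 6 genes (Wdr36, Rrp12, Tsr1, Utp15, Nop2 and Npm1), against 1.65% of all genes. The medians by class were -0.42 for small-subunit factors, -0.49 for large-subunit factors, -0.56 for snoRNP proteins and -0.42 for general nucleolar proteins. Without WT libraries 1 and 4 they were -0.12, -0.10, -0.12 and -0.25 in the same order, and without KO library 3 alone -0.48, -0.58, -0.64 and -0.47. Without KO library 3 alone the median of the 57 was -0.55. At an unadjusted p under 0.05, 28 were then lower, against 1959 of all 14100 genes in either direction. Every remaining KO array lay below every WT array for 12 genes, against 3.73% of all genes.

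Tsr1 had the lowest difference in set 3. Its level was 6.11, 6.37, 6.83, 6.75 and 6.12 in KO, against 8.32, 7.05, 6.92, 8.01 and 6.83 in WT, a difference of -0.99 ± 0.30 (adjusted p = 0.285). WT libraries 1 and 4 stood more than a log2 unit above the lowest WT library, and the other WT libraries lay just at or above the highest KO library. Wdr75 was 6.03, 6.36, 6.59, 6.77 and 6.44 in KO, against 8.25, 6.88, 6.76, 7.77 and 6.78 in WT (-0.85 ± 0.29, adjusted p = 0.292). Nop58 was 6.52, 6.95, 7.30, 7.43 and 7.06 in KO, against 8.62, 7.49, 7.38, 8.68 and 7.15 in WT (-0.81 ± 0.31, adjusted p = 0.309). The same WT libraries stood high for each.

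Those libraries were low in interferon response transcripts. The mean of the list was 10.86, 10.76, 10.48, 10.49 and 10.43 in KO, against 7.25, 10.39, 10.35, 8.31 and 10.66 in WT, so that WT libraries 1 and 4 lay below all others. Mxd1 was likewise 8.86 and 9.14 in WT libraries 1 and 4, and 10.46 to 10.76 in the other WT libraries. The same pair was high in proliferation transcripts, with list means of 8.72 and 8.63 against 8.12 to 8.19 in the other WT libraries, and in cDC1 markers, with 10.69 and 10.85 against 10.11 to 10.27. In set 3 as a whole, 16 of 16 proliferation genes and 9 of 10 cDC1 markers were below 0 in KO, with medians of -0.11 and -0.19. The part of these differences in the ribosome biogenesis result was not tested. Without this pair of libraries, a choice made after seeing the data, the median of the 57 genes was -0.12. Below 0 were 44 of 57, against 6656 of all 14174 genes. At an unadjusted p under 0.05, 11 were lower and 2 higher, against 1300 of all genes in either direction, and 0 passed. Without KO library 3 as well, the median was -0.17, and 47 of 57 were below 0, against 6838 of all 14118 genes. At an unadjusted p under 0.05, 22 were then lower and 1 higher, against 1511 of all genes in either direction, and 0 passed. Without WT libraries 1 and 4 alone, Tsr1 had -0.50, Wdr75, Nop2 and Rpf2 had -0.37 each, Gtpbp4 had -0.34 and Nhp2 had -0.30. Pes1 then had -0.07, Rrs1 0.05, Ncl 0.02 and Ltv1 0.30. Without KO library 3 as well, Rpf2 had the adjusted p nearest the threshold among these, 0.0586, with -0.46.

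**Figure D5:**
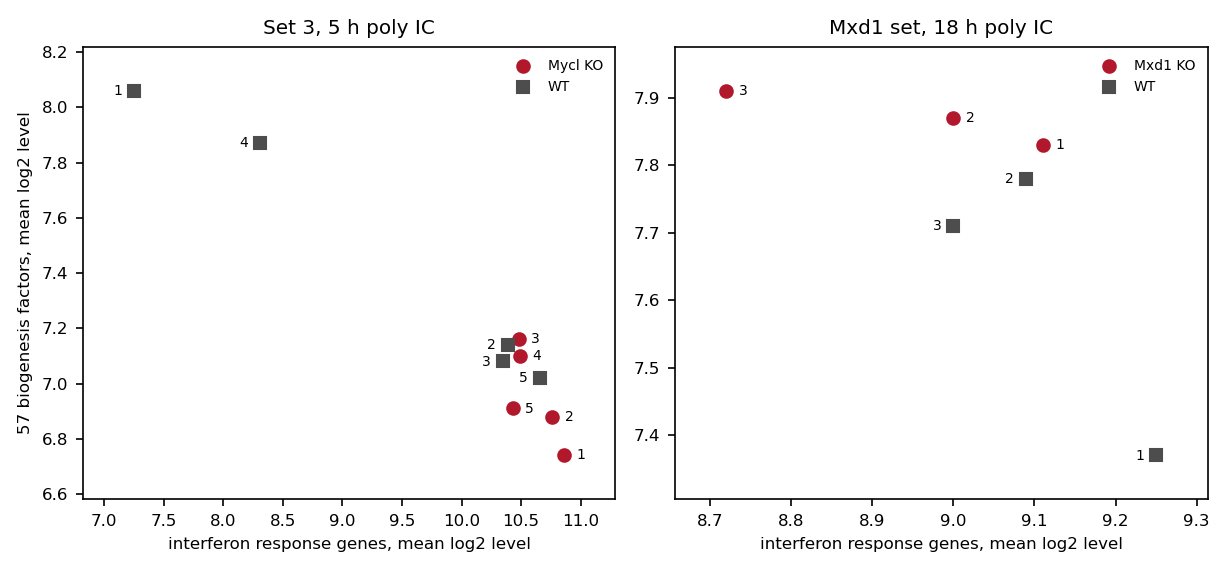
Mean log2 level of the 57 ribosome biogenesis genes against the mean of the interferon response list on each array given poly IC, KO and WT of set 3 and of the Mxd1 set. WT libraries 1 and 4 of set 3 stand at the low end of interferon transcripts and the high end of ribosome biogenesis transcripts.

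The Mycl KO effect with poly IC minus that at rest (set 3 minus set 2) was below 0 for all 57 genes, against 52.6% of 14665 genes, with a median of -0.37. At an unadjusted p under 0.05, 11 were lower, against 7.84% of all genes, and none passed the adjusted test (0.00682% of all genes did). Without WT libraries 1 and 4 the median was 0.01 and 28 of the 57 genes were below 0, against 7418 of all 14839. Without KO library 3 alone the median was -0.41 with all 57 below 0, against 7738 of all 14739.

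At 18 h after poly IC, all 57 genes lay above 0 in the libraries labelled Mxd1 KO relative to Mxd1 WT, against 49.4% of 14080 genes, and none passed the test (0.0284% of all genes rose). The median was 0.23 and the range 0.04 to 0.71. At an unadjusted p under 0.05, 20 were higher, against 9.51% of all genes, and all 3 libraries labelled KO lay above all 3 WT libraries for 23 genes, against 11.8%. The medians by class were 0.21 for small-subunit factors, 0.25 for large-subunit factors, 0.23 for snoRNP proteins and 0.27 for the general nucleolar proteins. Without WT library 1 they were 0.11, 0.14, 0.06 and 0.18 in the same order, and 2 of the 8 snoRNP proteins were then below 0.

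Nop58 had the largest difference in the Mxd1 set, with 8.01, 8.09 and 8.29 in the libraries labelled KO, against 7.15, 7.87 and 7.24 in WT (0.71 ± 0.18, adjusted p = 0.183). Tsr1 was 7.07, 7.09 and 7.28 in the libraries labelled KO, against 6.30, 7.00 and 6.60 in WT (0.51 ± 0.16, adjusted p = 0.224). All 3 libraries labelled KO lay above the WT libraries for both genes. Nop2 was 8.38, 8.39 and 8.38 in the libraries labelled KO, against 7.65, 8.29 and 7.87 in WT, and Ddx21 was 8.36, 8.31 and 8.46, against 7.69, 8.17 and 8.0 in WT. Dkc1 had a difference of 0.50 ± 0.18, Wdr3 and Nop2 of 0.45, and Ddx21 and Bysl of 0.43, with adjusted p of 0.201 to 0.256. WT library 1 was the lowest and WT library 2 the highest of the 3 for Nop58, Tsr1 and Nop2. Without WT library 1 the median of the 57 was 0.12, and 46 of 57 were above 0 and 11 below, where 7161 of all 14204 genes were below 0. Without WT library 2 the median was 0.32 and 8 of the 57 passed, where 2.98% of all genes rose, among them Nop58 (0.93, adjusted p = 0.0273), Dkc1 (0.73, adjusted p = 0.0293), Tsr1 (0.69, adjusted p = 0.037) and Pes1 (0.53, adjusted p = 0.0341). At the low end, Imp3 and Mrto4 had 0.04 and Rrp15 had 0.06.

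Cell cycle transcripts lay higher in the same libraries. The proliferation list mean was 8.36, 8.44 and 8.64 in the libraries labelled Mxd1 KO, against 7.74, 8.12 and 8.07 in WT, with 16 of 16 genes above 0 and a median of 0.53. The interferon response list was 9.11, 9.0 and 8.72 in the libraries labelled KO, against 9.25, 9.09 and 9.0 in WT. Their part in the ribosome biogenesis result was not tested.

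The Mycl sets and the Mxd1 set share no array, and the differences of the 57 genes in set 3 and the Mxd1 set had an r of -0.62 across genes, against -0.45 across all genes measured in both. The Mxd1 set had an r of -0.21 with set 1, against -0.29 across all genes, and of -0.23 with set 2, against -0.13. Genes are not independent replicates, and the libraries that stand apart in each set enter these values. Tsr1, Nop58 and Nop2 were among the genes with differences far from 0 in both, below 0 in Mycl KO and above 0 in the libraries labelled Mxd1 KO.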

How the data were processed

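The deposited table holds log2 values of 35556 transcript clusters on 35 arrays, which the authors made with the Affymetrix Expression Console and RMA, per the submitters' processing notes, with versions not given in the sources used here. RNA was labelled with a whole-transcript Pico kit, per the labels. The labels call the arrays biological replicates without saying that they came from different mice, so p-values measure the spread between these samples. Pairs of arrays within a set shared many exactly equal values (1987.08 to 13.62 on average) and pairs across sets nearly none (0.01 to 0.41), so the 4 sets were treated as normalized separately, and poly IC was not tested against rest. The design names spike-ins, which were not used here.

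The platform annotation paired 21789 clusters with a single symbol and 1621 with several, and it did not list 12146. For 999 genes with several clusters the one with the highest mean was used. A comparison tested the genes that reached the 30th percentile of named clusters in at least the smaller group's number of arrays. Differences are KO minus control by lmFit and eBayes of limma 3.58.1 (R 4.3.3), with two-sided p-values adjusted by Benjamini and Hochberg's method over every gene tested. The threshold was 0.05, and each fit held the compared groups alone. In simulated data with known changes of 0.5 on the log2 scale, 90.5%, 91.5%, 60.5% and 50.5% of changed genes were recovered. These values are for sets 1, 2, 3 and the Mxd1 set. With changes of 0.25 they were 29%, 11.5%, 0% and 0% in the same order. The simulated noise was drawn independently for each gene. The rates cannot be taken as those of the ribosome biogenesis genes in any set. In set 1 the differences of these genes reached -0.48 with a median of -0.19, and 1 of 57 passed the test. In set 3 and the Mxd1 set they reached -0.99 and 0.71, and none passed. The number of arrays limits the precision. Alternatives were other filters, the mean of a gene's clusters, all 8 groups in 1 fit, array weights, quantile normalization, trend and robust eBayes, a replicate block, and leaving out libraries.

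The genes and lists were chosen with earlier results of these data known. Named genes were those past the test, the 3 farthest from 0 and the 1 nearest 0 in each class, and a fixed list of 21 members; partners in the same complex were added after their values were seen. Replicate numbers were not treated as pairs in the main fits. The r of same-numbered samples was -0.398 to 0.348, and with so few arrays per group these values cannot exclude pairing.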

Additional observations from a re-analysis of the deposited data

Results flagged for a closer look

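In set 1 the Mycl level of heterozygous library 5 was 9.65, apart from the other 4 at 9.85 to 9.93. In set 3 the Mycl level of KO library 3 was 8.87, apart from the other 4 KO libraries at 5.52 to 6.14. In set 2 the Myc level of WT library 3 was 7.10, apart from the other WT libraries at 7.58 to 7.70. Chance alone marks about 1 in 20 groups in this way, and 126 groups were examined.

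The Mycl KO effect differed between the resting sets by the test of the difference for Utp20, by -0.39 (set 1 minus set 2), and for Rrp15, by -0.40. The controls were heterozygous in set 1 and WT in set 2, and the sets were normalized separately, so the control genotype and the set cannot be told apart.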

How the results depend on the processing

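The median difference of the 57 genes kept its direction in each single set and over both resting sets under every alternative run. Leaving out 1 library at a time, set 1 had medians between -0.23 and -0.15 and set 2 between -0.12 and -0.06. Set 3 had medians between -0.57 and -0.32, and the Mxd1 set between 0.12 and 0.32. With array weights the median of set 3 was -0.20, against -0.46 in the main fit. Of the 57 genes, 51 were then below 0, against 6855 of all 14033 genes. The median of set 3 minus set 2 reversed to 0.01 without WT libraries 1 and 4 and was -0.09 with array weights. Counts of genes that passed moved more. The 1 call of set 1 became 0 with all 8 groups in 1 fit, 0 with a replicate block and 8 with array weights (141 of all genes). It became 0 to 4 without 1 library (1 to 7 of all genes, against 3). The 12 calls of set 2 became 2 with all 8 groups (358 of all genes, against 861). Without 1 library the calls of set 2 became 5 to 14 (408 to 1007 of all genes). The 0 calls of set 3 became 35 with all 8 groups (1910 of all genes), a fit in which all sets share 1 estimate of the spread, and all genes gave 72 with array weights. The 0 calls of the Mxd1 set became 0 to 8 without 1 library, and the 10 calls over all genes became 235 with all 8 groups, 18 with array weights and 568 without WT library 2. The 17 calls over both resting sets stayed at 16 to 22 without 1 library (433 to 854 of all genes, against 649). The 2 calls for set 1 minus set 2 became 1 with no filter, 1 with trend and robust eBayes and 0 with quantile normalization. They became 0 with a replicate block (30 of all genes, against 148) and 0 to 2 without 1 library (31 to 317 of all genes). With array weights 584 of all genes passed for that difference. For set 3 minus set 2 all genes gave 74 with array weights and 41 without WT libraries 1 and 4, against 3. Where no cause is named, it was not tested. With a replicate block, 10 members passed in set 2 (830 of all genes, against 861) and 14 over both resting sets (463 of all genes, against 649). Not every sample correlated best with its own number.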
